A study of Mus musculus with 12 samples.

Results

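The data describe 10 immediate early genes in the mouse aorta, Fos, Fosb, Fosl1, Jun, Junb, Egr1, Egr2, Egr3, Atf3 and Nr4a1, each read by 1 probe among 55681 on the array. In all, 20026 gene names passed the filter on dim signal and were tested. The list was chosen by name and on the differences between BA+DMSO and DMSO arrays, described below, which were already known, so values in that comparison are given here without a test. RNA was measured in the aorta of 12 male C57BL/6J mice aged 11 to 14 weeks, 1 array a mouse, after 3 days. DMSO mice received vehicle alone and rapamycin mice received the mTOR inhibitor rapamycin at 2 mg/kg/day in that vehicle. BA+DMSO mice received the aortic dissection challenge, β-aminopropionitrile (BAPN, 150 mg/kg/day, which blocks collagen crosslinking) and angiotensin II (AngII, 1 µg/kg/min), with vehicle. BA+rapamycin mice received both drugs of the challenge with rapamycin, and each of the 4 groups held 3 mice. The titles of the DMSO samples call them Pre, the state before the challenge, whereas the series record places every sample at day 3.

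Immediate early genes are switched on within minutes of a stimulus, without new protein synthesis, by transcription factors such as SRF and CREB that are already in place. Growth factors, AngII and stretch act on them through kinase cascades, and their short-lived transcripts then fall back. Proteins of the Fos and Jun families join into the dimeric factor AP-1, Egr proteins are zinc finger factors, ATF3 is a stress-induced factor of the same leucine zipper class, and NR4A1 is an orphan nuclear receptor. In vessels they are known for the early response of smooth muscle cells to injury and to AngII.

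RefSeq start windows (build GRCm38.p6, 250 bases before to 50 after an annotated start) were searched for 7 of the 10 genes, Fos, Fosb, Jun, Junb, Egr2, Atf3 and Nr4a1, in 11 windows of which 5 belong to Egr2. Egr1, Fosl1 and Egr3 were not searched, so the counts below do not cover them. The sequences below give the 250 bases before the start of the 4 genes with the largest negative differences on vehicle and of Egr2, whose difference was positive. They are written 5′ to 3′, with capitals on the motif TGACG, the core of the cAMP response element that CREB and ATF factors bind, in either orientation, and on the CArG box that SRF binds.
Fos, chr12:85473640-85473889, + strand: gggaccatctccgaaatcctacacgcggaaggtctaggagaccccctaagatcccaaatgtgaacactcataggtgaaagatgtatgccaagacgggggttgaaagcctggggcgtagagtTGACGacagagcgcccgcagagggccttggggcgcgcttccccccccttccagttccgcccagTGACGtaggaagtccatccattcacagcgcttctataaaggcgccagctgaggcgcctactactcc
Fosb, chr7:19310046-19310295, - strand: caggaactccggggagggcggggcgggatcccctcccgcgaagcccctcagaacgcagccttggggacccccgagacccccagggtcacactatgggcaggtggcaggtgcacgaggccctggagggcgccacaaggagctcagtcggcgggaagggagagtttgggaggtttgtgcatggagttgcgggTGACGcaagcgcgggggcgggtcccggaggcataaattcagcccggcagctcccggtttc
Atf3, chr1:191183334-191183583, - strand: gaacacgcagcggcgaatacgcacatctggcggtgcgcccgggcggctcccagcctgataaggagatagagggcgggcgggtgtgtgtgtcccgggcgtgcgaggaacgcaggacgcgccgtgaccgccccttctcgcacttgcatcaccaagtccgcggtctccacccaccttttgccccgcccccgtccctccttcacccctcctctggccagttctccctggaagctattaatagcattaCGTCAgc
Nr4a1, chr15:101266596-101266845, + strand: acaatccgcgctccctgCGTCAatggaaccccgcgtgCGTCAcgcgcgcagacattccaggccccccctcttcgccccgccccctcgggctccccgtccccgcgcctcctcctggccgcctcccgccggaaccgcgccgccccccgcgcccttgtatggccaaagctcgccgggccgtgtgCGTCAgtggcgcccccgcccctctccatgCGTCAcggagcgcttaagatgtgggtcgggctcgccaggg
Egr2 start 2, chr10:67537316-67537565, + strand: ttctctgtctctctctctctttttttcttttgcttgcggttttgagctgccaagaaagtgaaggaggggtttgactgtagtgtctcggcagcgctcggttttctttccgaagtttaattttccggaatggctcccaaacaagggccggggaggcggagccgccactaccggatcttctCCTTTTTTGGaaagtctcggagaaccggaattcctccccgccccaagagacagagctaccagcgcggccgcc
On either strand, TGACG was found in 8 of the 11 windows, against 20.8% of 32851 start windows of all genes, and in at least 1 window of 6 of the 7 genes, against 23% of 27025 genes. Egr2 starts 3 to 5 overlap, so that their matches are the same sites seen 3 times. Jun had no match, and Nr4a1 had 4, from 233 to 36 bases before its start (positions -233 and -36). The full palindrome TGACGTCA, which contains TGACG, was absent from all 11 windows and stood in 1.79% of all windows. A CArG box lay in 4 of the 5 Egr2 windows, 3 of which share 1 box, and in none of the other 6 genes, against 1.63% of all windows. Egr2 start 2, the window printed, holds it from position -72 to position -63 and holds no TGACG, whereas starts 3 to 5 of Egr2 hold 2 matches of TGACG each. The AP-1 motif TGACTCA had no match in these windows and was present in 5.2% of all windows, and AAGGTCA, a core that NR4A1 binds, had none against 4.72%. The Egr motif GCGNGGGCG was found in Fosb from position -50 and in Nr4a1 from position -60, against 5.55% of all windows. TATAAA stood before the start of Fos from position -33 and in Junb just after its start, against 13.6% of all windows. These are matches of letters within 300 bases, and the serum response element for which Fos is known lies further upstream.

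**Figure D1:**
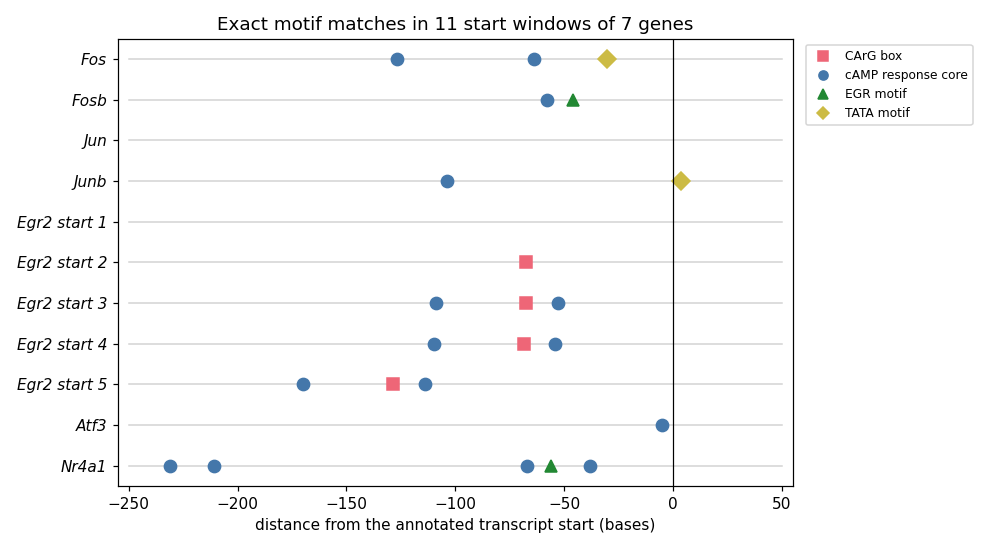
Motif matches on either strand in the 11 start windows of 7 immediate early genes, by distance in bases from the annotated transcript start (vertical line at 0). Circles (cAMP response core) lie in 8 windows, and squares (CArG box) lie only in 4 windows of Egr2.

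All levels below are log2 signal relative to the array's own 75th percentile of signal, so 0 is a signal equal to that percentile, and levels of different probes are not set against each other. The 75th percentile, a measure of array brightness, ranged from 221 to 337 intensity units over the unchallenged arrays, from 78.1 to 246 over BA+DMSO arrays and from 74.6 to 109 over BA+rapamycin arrays. Arrays within a group correlated across probes at 0.987 or more in DMSO and rapamycin, 0.974 or more in BA+rapamycin and only 0.912 to 0.961 in BA+DMSO. DMSO 1 to 3 and rapamycin 1 were hybridised on slide 1 and the other 8 arrays on slide 2, so that slide and challenge cannot be told apart in vehicle mice. Only the rapamycin group lay on both slides, so a fixed slide term in a fit rests on rapamycin 1 against rapamycin 2 and 3. All 8 smooth muscle markers checked, Acta2 and Myh11 among them, were well above background on at least 1 array of every group, as the label aorta requires. In whole tissue, fewer cells of a type and less RNA per cell cannot be told apart.

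Of the 10 genes, 8 were tested, because in some group all 3 arrays gave signal well above background. Fosl1 and Egr3 met that in no group. Comparing BA+DMSO with DMSO, the values behind the list, 6 genes were lower with no overlap between groups (Fos, Fosb, Jun, Egr1, Atf3 and Nr4a1), beside 20.1% of all 27801 tested probes. The name given to the list, lowered by challenge, therefore holds for 6 of its genes, while Junb and Egr2 had higher means in BA+DMSO than in DMSO, Fosl1 was above background on challenged arrays alone and Egr3 was not well above background on any array. Over the 8 tested genes the median difference was -2.15, and over all tested probes it was -0.045.

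**Figure D2:**
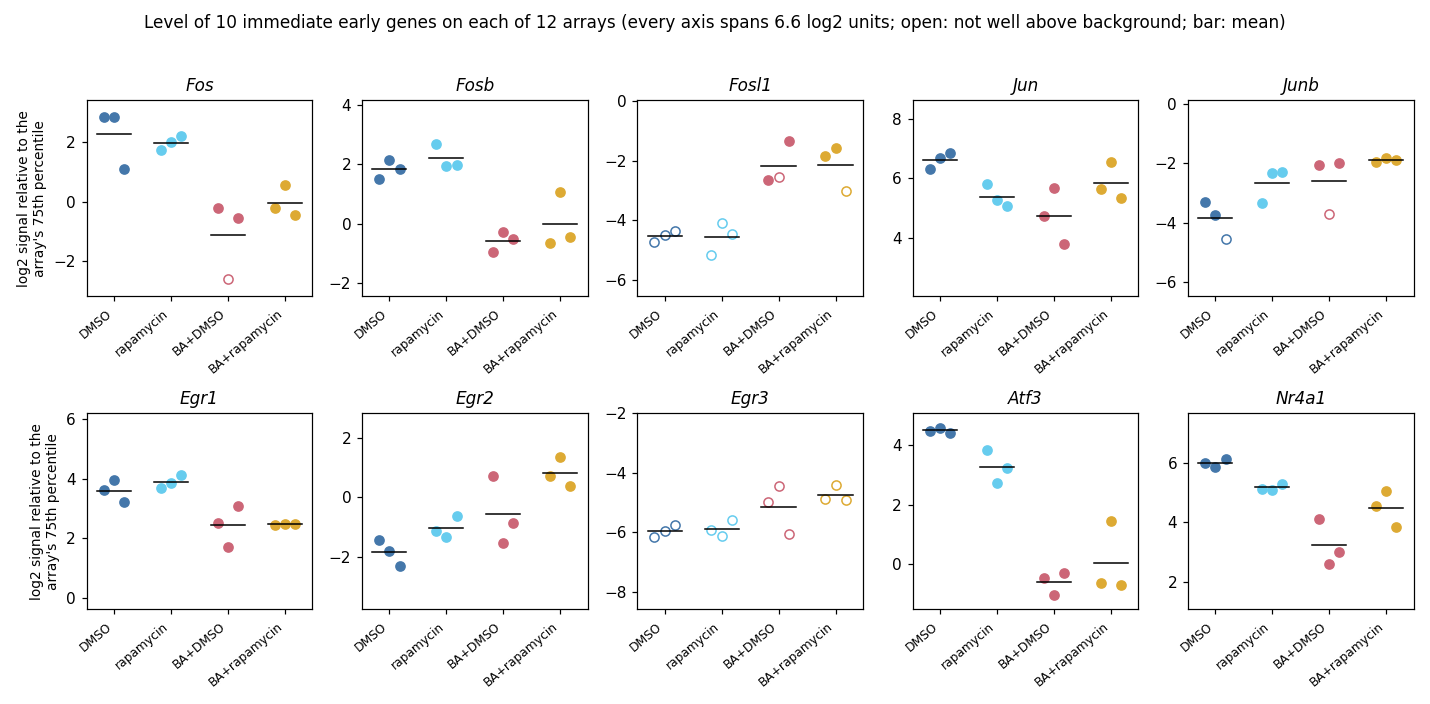
Log2 signal relative to the array's 75th percentile for 10 immediate early genes, 1 point a mouse, with the mean of 3 as a bar and open points where the spot was not well above background. Atf3 ran from 4.41 to 4.60 in DMSO and from -1.03 to -0.31 in BA+DMSO, whereas Egr2 stood highest in BA+rapamycin, from 0.38 to 1.37.

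Fos, the founding partner of AP-1, is read by 10 spots of the same probe (mm9 chr12:86817900-86817959, RefSeq transcript NM_010234), the other genes by 1 spot each. Its level was 2.85, 2.85 and 1.09 in DMSO 1 to 3, and 1.75, 2.01 and 2.19 in rapamycin 1 to 3. In BA+DMSO it was -0.23, -2.62 and -0.55, and in BA+rapamycin -0.20, 0.54 and -0.45. Every challenged mouse lay below every unchallenged mouse. BA+DMSO 2 was the only array on which the probe was not well above background, and its 10 spots spread there with an SD of 0.61, against 0.0567 to 0.149 on the other 11 arrays. The difference on vehicle was -3.39, a 10.5-fold lower mean that includes that array, and it was -2.65 without BA+DMSO 2 and -3.98 without DMSO 3.

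Fosb, a close relative of Fos whose product also dimerises with Jun proteins (mm9 chr7:19888168-19888227), gave tighter groups. Fosb stood at 1.50, 2.14 and 1.83 in DMSO and at 2.68, 1.93 and 1.99 in rapamycin. After challenge it stood at -0.96, -0.27 and -0.53 with vehicle and at -0.66, 1.05 and -0.47 with rapamycin. BA+rapamycin 2 was the only challenged array above 0, and still lay below all 6 unchallenged arrays. The difference on vehicle was -2.41, or 5.31-fold.

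Fosl1 encodes FRA-1, a Fos family member that usually accumulates later than Fos. Its probe (mm9 chr19:5455496-5455555) was not well above background on any of the 6 unchallenged arrays, where it read -4.73, -4.49 and -4.35 in DMSO and -5.17, -4.09 and -4.48 in rapamycin. In BA+DMSO it read -2.66, -2.54 and -1.35, above background on arrays 1 and 3, and in BA+rapamycin -1.85, -1.57 and -3.02, above background on arrays 1 and 2. The 4 challenged readings above background lay above all 6 unchallenged readings, but picking them by detection fixed that order. The lowest level of any probe well above background was -3.95 on BA+DMSO 3 and higher on the other arrays with a detected Fosl1. The highest unchallenged reading was -4.09, so nothing is read from the order. No fold is given, because BA+DMSO 2 and BA+rapamycin 3 had no signal above background either, and Fosl1 was not tested because no group had signal on all 3 arrays.

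Jun, the main partner of Fos in AP-1 (mm9 chr4:94716928-94716987), read 6.31, 6.69 and 6.86 in DMSO and 5.80, 5.27 and 5.07 in rapamycin. With the challenge it read 4.72, 5.66 and 3.80 on vehicle and 5.63, 6.56 and 5.34 with rapamycin. DMSO and BA+DMSO did not overlap, with a difference of -1.90 or 3.72-fold, whereas rapamycin and BA+rapamycin did. Junb, a Jun family member that can hold Jun activity back (mm9 chr8:87501881-87501940), was dim, with levels of -3.29, -3.73 and -4.54 in DMSO and -3.34, -2.34 and -2.29 in rapamycin. It reached -2.07, -3.71 and -1.98 in BA+DMSO and -1.94, -1.81 and -1.90 in BA+rapamycin, and it was not well above background on DMSO 3 and BA+DMSO 2. DMSO was thus the highest of the 4 groups for Jun and the lowest for Junb, whose difference on vehicle was 1.27 with the groups overlapping, 0.24 with the slide as a fixed block and 0.31 with normexp background correction.

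Egr1, induced by growth factors and by vessel injury, read 3.63, 3.96 and 3.22 in DMSO and 3.69, 3.88 and 4.12 in rapamycin. It read 2.52, 1.70 and 3.09 in BA+DMSO, a difference of -1.17 or 2.24-fold from DMSO, with the closest arrays of the 2 groups 0.13 apart. In BA+rapamycin it was 2.45, 2.49 and 2.48, the tightest group among the 8 tested immediate early genes (SD 0.0225, n = 3). Egr2, known for its part in myelination and in immune cell differentiation (mm9 chr10:67004798-67004857), ran the other way, from -1.43, -1.81 and -2.30 in DMSO and -1.13, -1.33 and -0.63 in rapamycin to 0.72, -1.52 and -0.87 in BA+DMSO and 0.72, 1.37 and 0.38 in BA+rapamycin. Its difference on vehicle was 1.29, with BA+DMSO 2 inside the DMSO range, and it was 0.65 without BA+DMSO 1 and 1.77 without BA+DMSO 2. Egr3 (mm9 chr14:70479222-70479281) was not well above background on any of the 12 arrays, where it read from -6.16 to -4.42, so no fold is given.

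Atf3 had the widest difference on vehicle (mm9 chr1:192994547-192994606). Its levels were 4.50, 4.60 and 4.41 in DMSO and 3.83, 2.75 and 3.25 in rapamycin. In BA+DMSO they were -0.45, -1.03 and -0.31, a difference of -5.10 or 34.3-fold from DMSO, with at least 4.72 log2 units between any array of the 2 groups. In BA+rapamycin they were -0.61, 1.45 and -0.71, so that BA+rapamycin 2 stood over 2 units above its group and still below every unchallenged mouse. Nr4a1, also called Nur77, which restrains smooth muscle growth and inflammation in vessels (mm9 chr15:101105071-101105130), read 5.99, 5.86 and 6.15 in DMSO and 5.13, 5.10 and 5.29 in rapamycin. It read 4.13, 2.60 and 3.02 in BA+DMSO and 4.56, 5.06 and 3.86 in BA+rapamycin. Its 4 groups ordered as DMSO, rapamycin, BA+rapamycin and BA+DMSO, and the first 3 did not overlap, although rapamycin and BA+rapamycin were separated by only 0.039.

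The comparison of BA+rapamycin with rapamycin asked whether the challenge also moved these genes in rapamycin-treated mice, in 6 arrays outside the comparison that named the list, although results of all arrays were known when it was drawn up. Fos, Fosb, Egr1 and Atf3 fell and Egr2 rose, so that 5 of the 8 tested genes passed limma's test at an adjusted p under 0.05, beside 41.7% of all tested probes. The 4 falls stand beside 22.9% of probes that fell and the 1 rise beside 18.9% that rose. Atf3 fell by 3.24 (SE 0.50, 9.42-fold, limma adjusted p = 0.00125) and Fosb fell by 2.22 (SE 0.41, 4.67-fold, limma adjusted p = 0.00289). Egr1 fell by 1.42 (SE 0.31, 2.68-fold, limma adjusted p = 0.00606) and Fos fell by 2.02 (SE 0.62, 4.06-fold, limma adjusted p = 0.0245). Egr2 rose by 1.86 (SE 0.50, 3.62-fold, limma adjusted p = 0.0141), and with the day code of the titles as a random block it was 1.39 and did not pass (adjusted p = 0.0546). Among the 8 tested genes, 5 were lower and 2 higher with no overlap between the groups, beside 36.1% and 29.8% of tested probes. All 3 arrays of BA+rapamycin lay beyond all 3 of rapamycin for each of these genes, and the two-sided exact permutation test of 3 against 3 arrays gave 0.1, the smallest p that this design allows.

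Jun, Junb and Nr4a1 did not pass. Jun differed by 0.47 (95% interval -0.51 to 1.44, limma adjusted p = 0.407). Nr4a1 differed by -0.68 (95% interval -1.50 to 0.14, limma adjusted p = 0.158) and Junb by 0.77 (95% interval -0.27 to 1.81, limma adjusted p = 0.202). The median over the 8 tested genes was -1.05, and that over all tested probes was -0.085. Array brightness moved with the challenge too, and with each array's 75th percentile as a covariate 2 of the 8 genes passed, Fosb and Jun, where 1786 of all 27801 probes did, with Jun turned to -1.50 (limma adjusted p = 0.0271), Atf3 at -3.42 (adjusted p = 0.0604), Egr1 at -0.21 (adjusted p = 0.726), Fos at -0.39 (adjusted p = 0.842) and Egr2 at 2.26 (adjusted p = 0.173). Within slide 2, BA+rapamycin minus rapamycin 2 and 3 was -2.14 for Fos, -1.98 for Fosb, -1.52 for Egr1, -2.96 for Atf3 and 1.81 for Egr2, of which Fosb, Egr1 and Atf3 passed limma's test on the arrays of that slide. With the slide as a block in the fit to all 12 arrays, all 5 passed, Fos with an adjusted p that rounds to 0.05. For this comparison the block fit is not a separate check, because rapamycin 1 was the only array compared that was off slide 2. It gave the slide 2 differences again, with the spread taken from all groups, and the same result as leaving out rapamycin 1. In that fit 7923 of 27801 probes passed, 4283 of them lower.

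**Figure D3:**
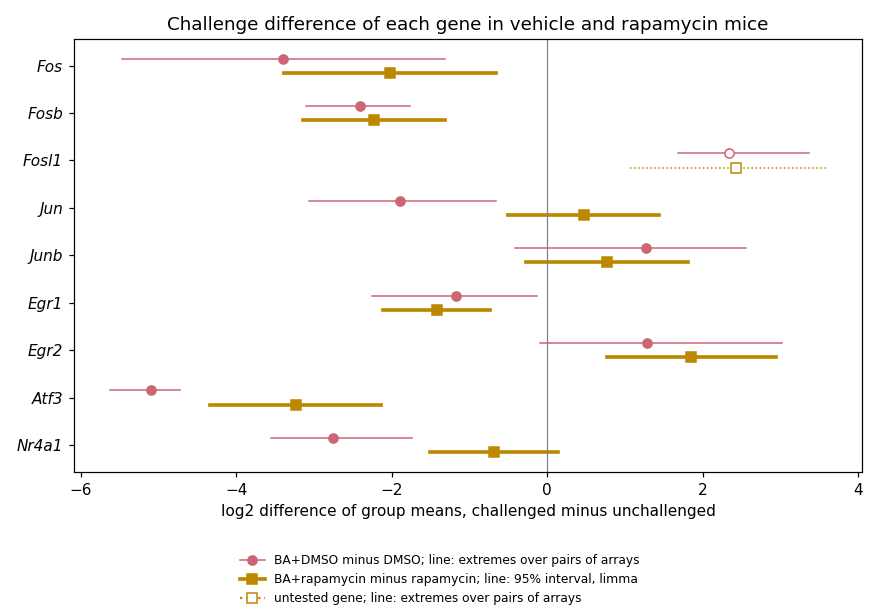
Log2 difference of challenged from unchallenged mice for the genes above background on some array (Egr3 left out), on vehicle (circles, line over the extremes of all pairs of arrays, no test) and under rapamycin (squares, line for limma's 95% interval). Atf3 lies farthest left in both, and Jun lies at -1.90 on vehicle and at 0.47 under rapamycin.

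Whether the challenge difference itself differed between vehicle and rapamycin mice was asked by the interaction, which contains the comparison that chose the list, so that genes picked for a fall on vehicle lean towards a positive value. None of the 8 genes passed limma's test after adjustment, as none of all probes did (0%), and nothing is read from the 3 with an unadjusted p under 0.05 (6.12% of probes). As a description, the largest values were 2.36 for Jun (SE 0.63), 2.07 for Nr4a1 (SE 0.53) and 1.87 for Atf3 (SE 0.71). A positive value here means that the challenge difference lay higher in rapamycin mice. Without BA+DMSO 2, the Jun interaction was 2.83 and passed the threshold, as 3058 of all 27801 probes did in that setting. For Fosb (0.18) and Egr1 (-0.26), the differences on the 2 backgrounds lay within 1 SE of each other.

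Rapamycin alone was compared with DMSO, whose arrays also entered the choice of the list, so that genes picked for high values in DMSO lean towards a negative difference. None of the 8 genes passed limma's test after adjustment, beside 0.0036% of all probes, and nothing is read from the 4 with an unadjusted p under 0.05 (4.27% of probes). As a description, Jun differed by -1.24 (SE 0.44), Atf3 by -1.23 (SE 0.50) and Nr4a1 by -0.82 (SE 0.37), and Junb by 1.20 (SE 0.47). The groups did not overlap for 4 of the 8 genes, Jun, Atf3, Nr4a1 and Egr2, beside 21.5% of probes in either direction, and nothing is read from this either. Egr2 differed by 0.82 (SE 0.50), Fos by -0.28, Fosb by 0.38 and Egr1 by 0.29. Over the mice that share a day code in their titles, DMSO 2 and 3 and rapamycin 2 and 3, the differences were -1.61 for Jun, -1.51 for Atf3, -0.81 for Nr4a1 and 1.82 for Junb. These DMSO arrays were on slide 1 and these rapamycin arrays on slide 2, so slide and rapamycin cannot be told apart there. Within slide 1, rapamycin 1 minus the 3 DMSO arrays gave -0.83, -0.67, -0.86 and 0.51 for the same genes in order.

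Rapamycin in challenged mice was compared with BA+DMSO, arrays that also entered the choice, so that genes picked for low values in BA+DMSO lean towards a positive difference. None of the 8 genes passed limma's test after adjustment, beside 0.281% of all probes, and nothing is read from the 3 with an unadjusted p under 0.05 (20.1% of probes). Nr4a1 was higher in BA+rapamycin by 1.25 (SE 0.37), Egr2 by 1.38 (SE 0.50) and Jun by 1.12 (SE 0.44). Groups overlapped for each of these, and Junb, higher by 0.70, was the only tested gene whose groups did not (6.9% of probes were higher without overlap), the closest arrays lying 0.041 apart. Over the 8 genes the differences ran from 0.035 for Egr1 to 1.38 for Egr2. Leaving out BA+DMSO 1 brought Egr2 (2.02) and Nr4a1 (1.68) past the threshold, where 224 of 27801 probes passed, and leaving out BA+DMSO 2 brought Jun (1.58), where 11092 of 27801 probes passed, against 78 with all arrays. In the mice of 1 shared day code, BA+rapamycin 1 minus BA+DMSO 1 was 0.44 for Nr4a1, 0.0041 for Egr2 and 0.91 for Jun.

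Single mice stood apart over several of these genes at once. BA+rapamycin 2 held the highest value of its group for 8 of the 8 tested genes, and for 36.3% of all tested probes, and it was the dimmest array, with a 75th percentile of 74.6. Its median over the 8 tested genes, each centred on its own mean, was 0.26, against -0.41 and -0.75 in the other BA+rapamycin mice. BA+DMSO 2, with a 75th percentile of 78.1, held the lowest value of its group for 6 of the 8 tested genes, and for 42% of probes. It held the highest for the other 2, and the centred medians of the BA+DMSO arrays were -0.76, -1.26 and -1.35. Without BA+rapamycin 2, Egr2 under challenge with rapamycin was 1.58 and did not pass (limma adjusted p = 0.0547), and Atf3 was -3.94. Fos did not pass without any of BA+rapamycin 1 (adjusted p = 0.0593), BA+rapamycin 3 (0.0779), rapamycin 2 (0.0601) or rapamycin 3 (0.0768), while Fosb, Egr1 and Atf3 passed whichever array was left out.

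**Figure D4:**
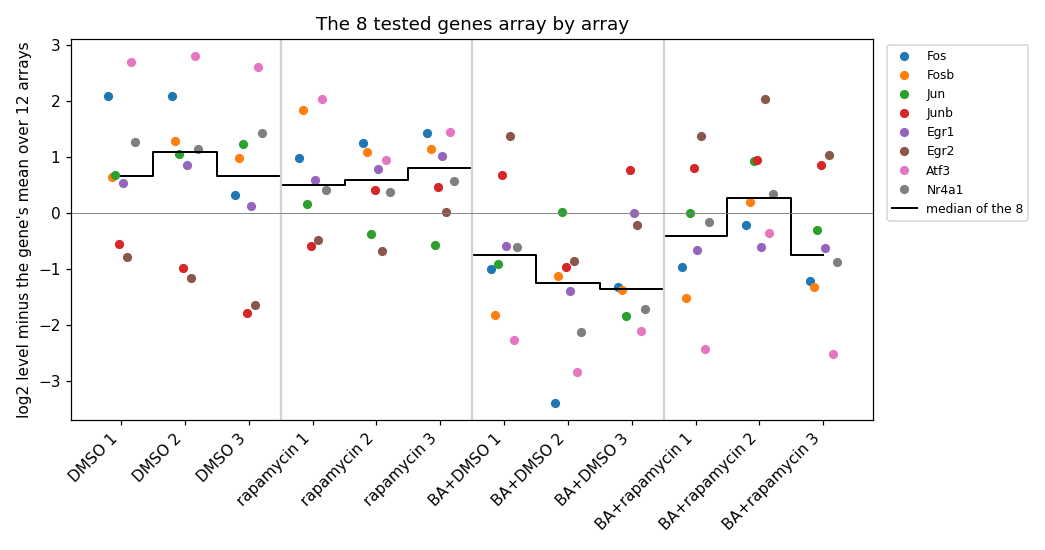
Level of the 8 tested genes on each array, in log2 units from each gene's mean over 12 arrays, with their median as a black line. The median stays above 0 on all 6 unchallenged arrays and below 0 on all challenged arrays except BA+rapamycin 2 (0.26), and Egr2 and Junb run against the others.

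Compared by their profiles over the 12 arrays, each centred on its mean, Junb and Egr2 were nearest to each other (root mean square difference 0.611), Fos and Jun were each nearest to Nr4a1 (0.796 and 0.801), Nr4a1 to Egr1 (0.78), Fosb to Egr1 (0.812) and Atf3 to Fos (1.07). The genes outside the list whose profile lay closest to the median profile of the 8 were Sp4 (0.286), Ank2 (0.326), Adam1a (0.333), Zfp609 (0.35), Casz1 (0.366), Fancc (0.372), Dnajb5 (0.374) and Cnr1 (0.378), where the median profile itself spans 2.44 log2 units. Sp4 and Casz1 encode zinc finger transcription factors. No gene of the related lists below was among these 8.

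Related genes of the same pathway were counted from lists written by role. Among 17 other leucine zipper factors of the AP-1, ATF, Maf and CREB families, 5 rose and 5 fell with the challenge under rapamycin, and 5 rose and 4 fell on vehicle, beside the 18.9% and 22.9% of all probes, and on vehicle 9.65% and 10.8%. Batf, which pairs with Jun proteins in immune cells, rose by 1.99 (SE 0.28, limma adjusted p = 0.000789) and Atf7 rose by 1.45 (SE 0.28, adjusted p = 0.00359, 1 of its 2 probes). Mafk, a small Maf protein, fell by 1.44 (SE 0.27, adjusted p = 0.00279), Creb1 fell by 1.22 (SE 0.24, adjusted p = 0.00384, above background on 1 of 3 BA+rapamycin arrays) and Jund, the third Jun family gene, fell by 0.63 (SE 0.17, adjusted p = 0.0159). The list's median was -0.058, and it was 0.13 when arrays were scaled on probes detected on every array, a scaling that moved the median of all probes from -0.085 to 0.10 and gave 6 rises and 3 falls in this list. With that scaling 11507 of all 27801 probes passed, 4969 of them lower.

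Of 49 other rapidly induced genes, 45 were tested, and Egr4, Nr4a3, Dusp4 and Dusp5 were too dim. Under rapamycin 11 fell and 5 rose with the challenge (22.9% and 18.9% of all probes), and on vehicle 10 fell and 4 rose (10.8% and 9.65%). Under the scaling on probes detected on every array, 6 fell and 9 rose under rapamycin, where 11507 of all 27801 probes passed, 4969 of them lower. Btg2, an antiproliferative early gene, fell by 2.02 (SE 0.31, limma adjusted p = 0.00115) and Gem, a small GTPase that restrains calcium entry, fell by 2.01 (SE 0.48, adjusted p = 0.00885, 1 of 2 probes). Dusp1, the phosphatase that switches MAP kinases off, fell by 1.20 (SE 0.32, adjusted p = 0.0135). Myc rose by 1.84 (SE 0.54, adjusted p = 0.0202), and Ptgs2, the inducible cyclooxygenase, differed by 1.94 without passing (SE 0.76, adjusted p = 0.0616). The median of the 45 was -0.16, and 0.026 under that scaling.

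Among 22 kinases, SRF partners and CREB co-activators that act upstream of these genes, 9 fell and 5 rose under rapamycin (22.9% and 18.9% of all probes), and 6 fell and 1 rose on vehicle (10.8% and 9.65%). With the other scaling 6 fell and 5 rose under rapamycin, where 11507 of all 27801 probes passed, 4969 of them lower. Srf itself fell by 1.54 (SE 0.26, limma adjusted p = 0.00199, 1 of 2 probes), as did the kinases Rps6ka5, which acts on CREB and histone H3 (-1.65, SE 0.21, adjusted p = 0.000525, above background on 2 of 3 BA+rapamycin arrays), and Mapk8, which encodes JNK1. Mapk8 was not well above background on any BA+rapamycin array, so its fall is given as at least 1.26-fold, a bound that was not tested. Limma's adjusted p of 0.00744 belongs to the difference of -1.63 from the BA+rapamycin readings as they stood. The CREB co-activator Crebbp rose by 1.97 (SE 0.56, adjusted p = 0.0178, both of its probes) and the ERK-activated kinase Rps6ka1 rose by 1.86 (SE 0.24, adjusted p = 0.000531). Of 5 corepressors of Egr and AP-1 factors, Nab1, which binds Egr1 and Egr2, was the only one called (-0.97, SE 0.35, adjusted p = 0.0453). Within slide 2 the counts under rapamycin were 2 up and 2 down of the leucine zipper factors, 1 and 1 of the rapidly induced genes, 1 and 3 of the upstream genes and none of the corepressors, where 3268 of all 27801 probes passed, 1587 of them lower. With array brightness as a covariate they were 1 and 1, 1 and none, 1 and none, and none, where 1786 of 27801 probes passed, 501 of them lower. With the slide as a block, none of the genes of these lists passed on vehicle, where 15 of 27801 probes did. The slide term on vehicle hangs on rapamycin 1, so nothing is read from that count. Leaving out 1 array moved the counts too. Falls of rapidly induced genes under rapamycin numbered 4 without rapamycin 1, 4 without BA+rapamycin 3, 5 without BA+rapamycin 1 and 6 without rapamycin 3, and on vehicle 4 without DMSO 2. Rises of leucine zipper factors under rapamycin ranged from 2 without rapamycin 3 to 6 without BA+DMSO 2, and falls of upstream genes from 5 without BA+rapamycin 2 or rapamycin 3 to 11 without BA+DMSO 2. Rises of rapidly induced genes under rapamycin ranged from 2 without BA+rapamycin 2 or rapamycin 3 to 10 without BA+DMSO 2. On vehicle, falls of upstream genes numbered 2 without DMSO 2 and 3 without DMSO 3, their rises numbered 5 without BA+DMSO 3, and falls of leucine zipper factors numbered 1 when DMSO 2, DMSO 3 or BA+DMSO 1 was left out, and rises of rapidly induced genes numbered 8 without BA+DMSO 2. Rises of leucine zipper factors on vehicle numbered 3 when DMSO 1, DMSO 2, DMSO 3 or BA+DMSO 1 was left out, and their falls numbered 2 without DMSO 1. The number of all probes called moved as well. Under rapamycin it was 11602 with all arrays, 6530 without rapamycin 3, 7923 without rapamycin 1, 7876 without BA+rapamycin 2, 7955 without BA+rapamycin 3, 9736 without BA+rapamycin 1 and 15816 without BA+DMSO 2. On vehicle it was 5697 with all arrays, 3269 without DMSO 1, 2051 without DMSO 2, 3050 without DMSO 3, 3105 without BA+DMSO 1, 7555 without BA+DMSO 2 and 10574 without BA+DMSO 3.

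**Figure D5:**
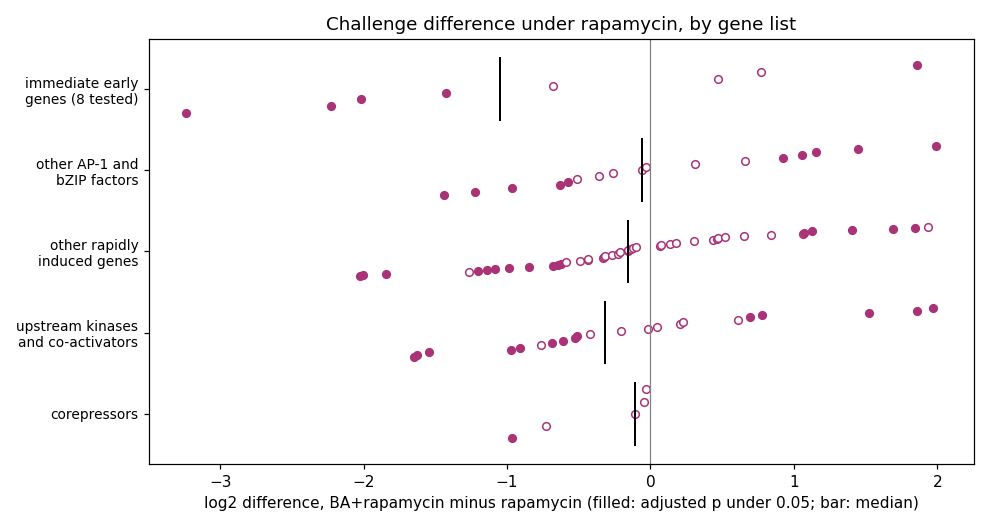
Log2 difference of BA+rapamycin from rapamycin for each tested gene, by list, filled where limma's adjusted p is under 0.05, with the list's median as a bar. The 8 tested immediate early genes have their median at -1.05, and the 45 other rapidly induced genes at -0.16.

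Markers of some other cell types moved with the challenge. Of 10 macrophage markers, 9 rose on vehicle (median 2.27, beside 9.65% of all probes that rose) and 7 under rapamycin (median 1.45, beside 18.9%), with no fall, and all 10 were well above background on at least 1 array of every group. Their summed signal, in multiples of the array's 75th percentile, ranged over 113 to 143 (DMSO), 129 to 150 (rapamycin), 214 to 499 (BA+DMSO) and 391 to 517 (BA+rapamycin). The 8 smooth muscle markers summed to 2858 to 3080 (DMSO), 2598 to 3060 (rapamycin), 2460 to 4837 (BA+DMSO) and 3484 to 4522 (BA+rapamycin). Of these markers 1 was lower on vehicle, beside 10.8% of all probes. Under rapamycin 3 were lower and 1 higher, beside 22.9% and 18.9% of all probes. The summed signal of 4 erythroid markers had medians of 62.3, 142, 156 and 329 in the same order of groups. Such sums follow their brightest probes and are not amounts of cells. For macrophages the brightest was Itgam, the marker not called on vehicle by that probe (limma adjusted p = 0.0906). For smooth muscle the brightest were Acta2, Tagln and Cnn1. The part of these cells in the levels of the immediate early genes was not tested.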

How the data were processed

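Per the labels, RNA from 12 aortas was labelled with Cy3 and hybridised to 1-colour Agilent mouse arrays, and per the file headers Feature Extraction 10.7.1.1 wrote for each spot a linear intensity after background subtraction and detrending, with no step between arrays. The submitters' processing notes name version 9.5.1.1. The deposited matrix of intensity values was found to be quantile normalized and served as an alternative. Signals were put on the log2 scale, outlier spots were dropped, spots of a probe were averaged and each array's 75th percentile was subtracted. Probes were tested if at least 0.5 of their spots were well above background on all 3 arrays of a group (27801 probes). All 12 arrays entered 1 limma 3.58.1 model (R 4.3.3) with a mean for each group, two-sided tests and Benjamini-Hochberg adjustment over all tested probes, and the threshold was 0.05. The script was tested on simulated data. The number of arrays limits the precision, and saturated spots numbered 0. Replicates were numbered in the order of deposition. Related genes stood by their brightest tested probe, and of each list the 4 with the largest difference under rapamycin were named (for the corepressors, the called gene), with Jund, Srf and Dusp1 added after their values were seen. Loci named only by coordinates were left out of the search for like profiles. The members and lists were chosen with earlier results of these data known. Coordinates of probes are in mm9 per the file headers.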

Additional observations from a re-analysis of the deposited data

How the results depend on the processing

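Other normalizations, backgrounds, filters, batch terms, array weights and the deposited matrix were tried, and each array was left out in turn. The count of 5 genes called with the challenge under rapamycin was 3 on slide 2 only and 2 with array brightness as a covariate. It was 3 at an unadjusted p under 0.01 with a fold over 4 or under 0.25. The study's methods give this p and these folds without saying whether p was adjusted. With array weights the count was 7, where Nr4a1 (-0.91, limma adjusted p = 0.00288) and Junb (0.93, limma adjusted p = 0.0443) also passed and 18256 of 27801 probes did. The slide 2 and brightness settings were chosen after seeing the data, brightness is partly confounded with the challenge, and slide 2 alone has fewer arrays. Array weights, whose estimation did not converge, also called 2 genes for rapamycin alone (Jun and Nr4a1) in place of 0, where 1512 probes were called in place of 1. On vehicle they called none of the related genes, where 112 of 27801 probes passed. With only the compared groups in the fit, 5 rapidly induced genes fell and 2 rose on vehicle, where 1244 of 27801 probes passed. With the slide as a fixed block, the median difference on vehicle was -1.58 in place of -2.15, with Atf3 at -4.27, Fosb at -1.69, Jun at -1.27 and Junb at 0.24. These values hang on 1 array, rapamycin 1, which alone sets the slide term against rapamycin 2 and 3. With brightness as a covariate, Fos on vehicle was -2.46, Jun -3.01, Egr1 -0.47 and Junb 2.18, and with normexp Fos was -2.48, Fosb -1.82 and Junb 0.31. Leaving out 1 array gave medians on vehicle from -2.39 to -1.96, from 4 to 5 calls under rapamycin, 0 for rapamycin alone, from 0 to 2 for rapamycin under challenge and from 0 to 1 for the interaction. The probes called ranged from 6530 to 15816, from 0 to 4, from 30 to 11092 and from 0 to 3058 in the same order, each highest without BA+DMSO 2. The signs of small differences turned in some settings. With brightness as a covariate, the interaction was 0.27 for Egr1, -0.17 for Fosb and 0.19 for Junb, and Jun under rapamycin was -1.50. The slide block gave interactions of -0.30 for Fosb and 0.19 for Junb, and array weights gave -0.24 for Fosb and -0.17 for Egr1 in rapamycin under challenge, which was -0.000723 with the title day as a random block. Over mice sharing a title day, whose DMSO and rapamycin arrays were on different slides, rapamycin alone was 0.14 for Fos and -0.024 for Fosb. Leaving out 1 array turned the sign of rapamycin alone for Fos (-0.86 to 0.017), of rapamycin under challenge for Atf3 (-0.065 to 1.02) and Egr1 (-0.33 to 0.36), and of the interaction for Egr1 (-0.62 to 0.071) and Fosb (-0.36 to 0.50). The cause was not tested. Scaled on probes detected on every array, 4969 of 11507 called probes were lower under rapamycin, against 6358 of 11602. With the day code of the titles as a random block (estimated correlation 0.496, with BA+DMSO 2 and 3, whose titles give no day, each a block of its own), 4 genes were called under rapamycin, without Egr2. By replicate number, no paired analysis was possible because the numbers follow the order of deposition, and the title day and the slide were the blocks used. Dim signal limits Fosl1, Junb and Egr3, and Fos on BA+DMSO 2.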
